A study of Mus musculus with 2 samples.

Results

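The cells described here are CD4 T cells that carried transcripts of Pdcd1, which encodes the inhibitory receptor PD-1. They also carried a gene that the rule used to pick cells like follicular helper T (Tfh) cells. They were chosen from their own counts. A cell entered if it had at least 1 UMI (a counted RNA molecule) of Pdcd1, no UMI of Foxp3 and none of Cxcr6, and at least 1 UMI in the sum of Slamf6, Cxcr5, Tox2 and Gpm6b. Of 12789 cells with at least 500 genes, at least 1000 UMIs, less than 10% mitochondrial UMIs and at least 1 UMI of a T cell receptor beta constant gene, 160 (1.25%) met this rule, 50 in the library of experiment 1 and 110 in that of experiment 2. In 98 of the 160 cells Slamf6 was the sole gene of that sum to be found. The 160 cells are called Tfh-like cells below, because no Tfh protein was measured on them. They were set against 2598 Cxcr6-positive cells, which had at least 1 UMI of Cxcr6 and none of Foxp3, and against 9029 Pdcd1-zero cells, which had no UMI of Pdcd1, Cxcr6 or Foxp3.

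The study compared CD4 T cells of visceral (VAT), subcutaneous (SAT) and brown (BAT) adipose tissue and of spleen from wild-type C57BL/6J mice, all male and 8 weeks old, and the labels name no treatment. Live cells were sorted 2 times by their CD4, CD3 and T cell receptor beta staining, marked with hashtag antibodies that tell the sample of origin, and run as 1 droplet library in each of 2 experiments, where a library pooled 8 hashed samples. Fat was digested with collagenase II and spleen was dissociated by mechanical means alone, so that every comparison of fat with spleen holds this difference too. The labels do not say whether hashed samples of the same tissue came from separate animals, and the p-values below measure only the spread between these samples.

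Tfh cells are CD4 T cells that help B cells in the germinal centres of lymphoid organs. The transcription factor Bcl6 directs their formation, the chemokine receptor Cxcr5 brings them into B cell follicles, and the cytokine gene Il21, the costimulatory receptor Icos and the adaptor Sh2d1a (SAP) serve their contact with B cells. PD-1 is high on Tfh cells and is also found on activated, memory and exhausted T cells, and Pdcd1-positive CD4 memory cells with CD153, the product of Tnfsf8, are known from aged mice and from fat. Cxcr6 marks effector and tissue-resident T cells, among them type 1 helper (Th1) cells.

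The libraries held 29153747 and 43879975 gene UMIs, with medians of 6121 and 4316.5 UMIs per kept cell. Tfh-like cells were deeper than the others, at medians of 7000 and 5145 UMIs in the 2 libraries, against 6298 and 4590 in Cxcr6-positive cells and 6038 and 4237 in Pdcd1-zero cells. A rule that asks for UMIs finds deeper cells more often, and shares of cells are therefore also given after each cell was thinned to 1000 UMIs. Only 8 barcodes occurred in both libraries. Hashtags placed 128 of the 160 Tfh-like cells in 1 hashed sample, 24 carried hashtags of more than 1 sample and 8 stayed unresolved. The 24 were 8 of 50 Tfh-like cells in the library of experiment 1 and 16 of 110 in that of experiment 2, against 7.91% and 14.0% of all cells. Among all cells, those with more than 1 hashtag had medians of 12087 and 2936 UMIs, against 5957 and 4633 in placed cells.

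Among the genes of the rule, Slamf6, a receptor of the SLAM family that signals through SAP, was found in 151 Tfh-like cells (94.4%) and was the sole gene of its kind in 98 of them. Gpm6b, a membrane glycoprotein gene, was found in 36 cells (22.5%), Cxcr5 in 25 (15.6%) and Tox2, a transcription factor gene, in 18 (11.2%). These shares follow from the rule and are given as a description. Pdcd1 itself stood at 1 UMI in 112 cells and at 2 or more in 48, with a highest value of 10. In the build mm10 with the GENCODE vM21 annotation, Pdcd1 lies on chromosome 1 at 94038305 to 94052553 on the minus strand, Slamf6 on chromosome 1 at 171917515 to 171953170 on the plus strand and Cxcr5 on chromosome 9 at 44511787 to 44561877 on the minus strand.

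The name was checked against 8 Tfh genes that neither the rule nor the named markers use, Izumo1r, Icos, Cd200, Sh2d1a, Il21, Bcl6, Ascl2 and Maf. Of these a Tfh-like cell carried 2.51 ± 1.57 on average (SD over cells), against 1.60 ± 1.16 for Cxcr6-positive and 0.969 ± 0.958 for Pdcd1-zero cells. At least 3 of them were found in 45.0% of Tfh-like cells (exact Clopper-Pearson 95% interval 37.1 to 53.0, counting error only, as for all intervals below), against 20.9% of Cxcr6-positive and 7.08% of Pdcd1-zero cells. The share was not particular to the Tfh-like cells. It was 37.1% (30.7 to 43.8) in the 221 Cxcr6-positive cells that carried Pdcd1 and 38.3% (35.1 to 41.6) in Foxp3-positive cells, and both intervals overlap that of the Tfh-like cells. After thinning the shares were 6.88% in Tfh-like cells, 2.26% in Cxcr6-positive cells with Pdcd1, 3.76% in Foxp3-positive cells, 1.00% in all Cxcr6-positive cells and 0.432% in Pdcd1-zero cells. At the edge of the rule stood 53 cells with at least 1 UMI of Pdcd1 and exactly 1 in the sum of Slamf6, Cxcr5, Tox2 and Gpm6b. At least 3 of the 8 genes were found in 35.8% of them. In 125 cells just outside the rule, with Pdcd1 but none of Slamf6, Cxcr5, Tox2 and Gpm6b, the share was 17.6%. After thinning these shares were 0% and 1.60%, too few cells to order the 2 groups. The mean number of the 8 genes per thinned cell was 0.604 at the edge and 0.536 just outside. It was 0.375 and 0.394 in the library of experiment 1 and 0.703 and 0.587 in that of experiment 2, so the libraries differed in order.

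The defining genes of germinal centre Tfh cells were found in a minority of the Tfh-like cells. Il21 was found in 11 of 160 cells, or 6.88% (3.48 to 11.97), against 0.654% of Cxcr6-positive and 0.155% of Pdcd1-zero cells. Foxp3-positive cells, which should lack Il21, had a UMI of it in 0 of 877 cells at a median of 5045 UMIs, which allows a share of cells with a UMI of up to 0.342% by a floor of 3 counts and of 0.420% by the exact upper limit. Bcl6 was found in 8.75% of Tfh-like cells (4.87 to 14.2), against 3.70% of Cxcr6-positive, 2.64% of Pdcd1-zero and 5.13% of Foxp3-positive cells (3.77 to 6.81), whose interval overlaps that of the Tfh-like cells. Thinned to 1000 UMIs, the Il21 shares were 3.75%, 0.116% and 0.0221%, and those of Bcl6 were 1.88%, 0.539% and 0.631%. Cebpa, a transcription factor gene reported in the CD153-positive memory cells, was found in 6.88%, against 0.308% and 0.377%. Ascl2, a factor that induces Cxcr5, was found in 4 Tfh-like cells, against 0 Cxcr6-positive and 6 Pdcd1-zero cells. These genes had too few counts for the gene tests between classes of cells below.

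Those tests summed counts per class within each hashed sample that held at least 10 Tfh-like cells. This left 6 hashed samples with 88 of the 160 cells, VAT2 of experiment 1 and, from experiment 2, VAT1, VAT2, SAT2, SPLN1 and SPLN2, where SPLN is spleen; BAT had none. Sums of Tfh-like cells held 55100 to 127604 UMIs, those of Cxcr6-positive cells 149741 to 1825510 and those of Pdcd1-zero cells 1239892 to 4304419. Levels are in counts per 1000000 UMIs of a sum (CPM), and in such sums fewer cells with a transcript and less transcript per cell cannot be told apart.

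Set against Pdcd1-zero cells, Tfh-like cells had more transcript of costimulatory receptors and of part of the Tfh programme. They had less of genes of naive and recirculating T cells. Tnfrsf4 (OX40), Tnfrsf9 (4-1BB), Cd200 and Ctla4 were 4 to 8 times as high, and Satb1, Lef1 and Ccr7 were lower in all 6 hashed samples. Over all Tfh-like cells the gaps of Satb1, Lef1 and Ccr7 were smaller, as given below. Of 8114 genes tested with edgeR's quasi-likelihood test, with the hashed sample as a block and Benjamini-Hochberg adjustment, 441 (5.44%) passed an adjusted p of 0.05, 142 higher (1.75%) and 299 lower (3.68%). The split depends on the scaling. Scaling by library size alone gave 353 higher and 127 lower, and RLE size factors 199 and 202, and the median log2 fold change of all genes was -0.11 with TMM scaling and 0.15 with library size. Calls also depended on the cells and samples used. Of 70 named genes, 33 lost the call and 25 were unchanged in cells of 4000 to 8000 UMIs, which left fewer cells. Without the spleen samples 20 lost it and 49 were unchanged.

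Tbc1d4 and Tnfsf8 were named as markers of these cells from earlier results on the same data, so their levels are given as a description. Both were among the genes tested and counted above, but their test results are not used. Tbc1d4, a Rab GTPase-activating protein gene on chromosome 14 at 101442360 to 101609191, stood at 149, 292 and 454 CPM (lowest, median and highest of 6) in Tfh-like cells, against 27.4, 44.3 and 56.5 in Pdcd1-zero cells. Tnfsf8, the gene of CD153 on chromosome 4 at 63831308 to 63861347, stood at 90.7, 179 and 272 CPM, against 40.7, 48.4 and 67.1. For both genes the lowest sum of Tfh-like cells exceeded the highest of Pdcd1-zero cells.

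Of the other 19 genes of the Tfh list, 14 could be tested; 6 rose, none fell and 8 did not pass, with a median log2 fold change of 0.89, against -0.11 over all genes. Cd200, an immunoglobulin-like ligand of myeloid cells, had 15.7, 78.5 and 114 CPM in Tfh-like cells, against 8.97, 11.2 and 20.97 in Pdcd1-zero cells. It was higher in 6 of 6 hashed samples, although VAT1 of experiment 2, the lowest, overlapped the Pdcd1-zero range, and its log2 fold change was 2.22 ± 0.40 (SE; edgeR adjusted p = 0.000427). Izumo1r, the folate receptor 4 gene, had 70.5, 152 and 519 CPM, against 44.4, 76.4 and 135, with the highest values in the spleen samples (log2 fold change 1.15 ± 0.23, edgeR adjusted p = 0.00152). Without the spleen samples its log2 fold change was 0.70 and did not pass.

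Maf, a transcription factor that drives Il21 and Il4, had a log2 fold change of 1.90 ± 0.31, Sh2d1a 1.30 ± 0.20, the phosphatase gene Ptpn11 1.18 ± 0.23 and Icos 1.13 ± 0.32, all past the edgeR threshold. Icos lost its call without the spleen samples, at 0.47. Tcf7, the factor that keeps memory and Tfh cells self-renewing, did not differ beyond its error, at -0.07 ± 0.16, nor did Cd40lg (-0.19 ± 0.19), Cd84 (-0.08 ± 0.20) or Rgs10 (0.12 ± 0.21).

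**Figure D1:**
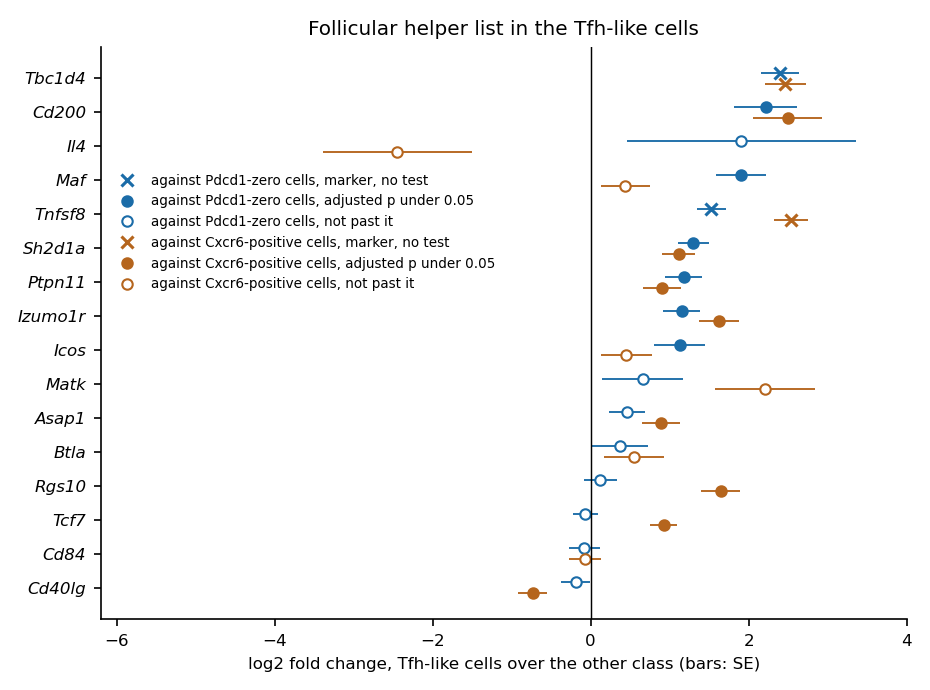
Log2 fold changes of the tested Tfh list genes in Tfh-like cells, over Pdcd1-zero cells (blue) and over Cxcr6-positive cells (brown), with standard errors as bars. Filled points passed an adjusted p of 0.05 and open points did not. Crosses mark Tbc1d4 and Tnfsf8, which were named as markers and whose test results are not shown. Cd200, Izumo1r, Sh2d1a and Ptpn11 lie to the right of 0 and are filled in both comparisons, and Maf in the first alone.

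The plot of fold changes shows the list to be uneven. Apart from the markers, Cd200 stood highest among the genes that rose, while Tcf7, Cd84 and Rgs10 lay close to 0 against Pdcd1-zero cells.

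Costimulatory and inhibitory receptors were higher as well. Of 12 tested genes 7 rose and none fell, with a median log2 fold change of 1.05. Tnfrsf4, whose product prolongs T cell survival, had 231, 375 and 613 CPM in Tfh-like cells, against 20.9, 43.5 and 72.7 in Pdcd1-zero cells. The sums did not overlap, and the log2 fold change was 2.99 ± 0.27 (edgeR adjusted p = 1.24e-08). Tnfrsf9 had 18.2, 37.3 and 114 CPM, against 4.52, 8.38 and 10.9, again without overlap (2.66 ± 0.45, edgeR adjusted p = 0.000226). Ctla4, the receptor that competes with CD28, had 70.9, 104 and 143 CPM, against 9.50, 24.3 and 40.2, and did not overlap (2.02 ± 0.30). Tox, a factor of chronically stimulated T cells, rose by 1.13 ± 0.25 and Tnfrsf18 (GITR) by 0.97 ± 0.15. Cd5 (0.55 ± 0.15) and Nt5e (CD73, 1.14 ± 0.35) passed as well but not without experiment 1, that is without its VAT2, at 0.40 and 1.02, and Nt5e also not without SAT2 (0.99). Lag3 and Tigit had too few counts to be tested in this comparison. A Lag3 UMI was found in 11.9% of Tfh-like cells, against 1.23% of Cxcr6-positive and 0.454% of Pdcd1-zero cells.

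**Figure D2:**
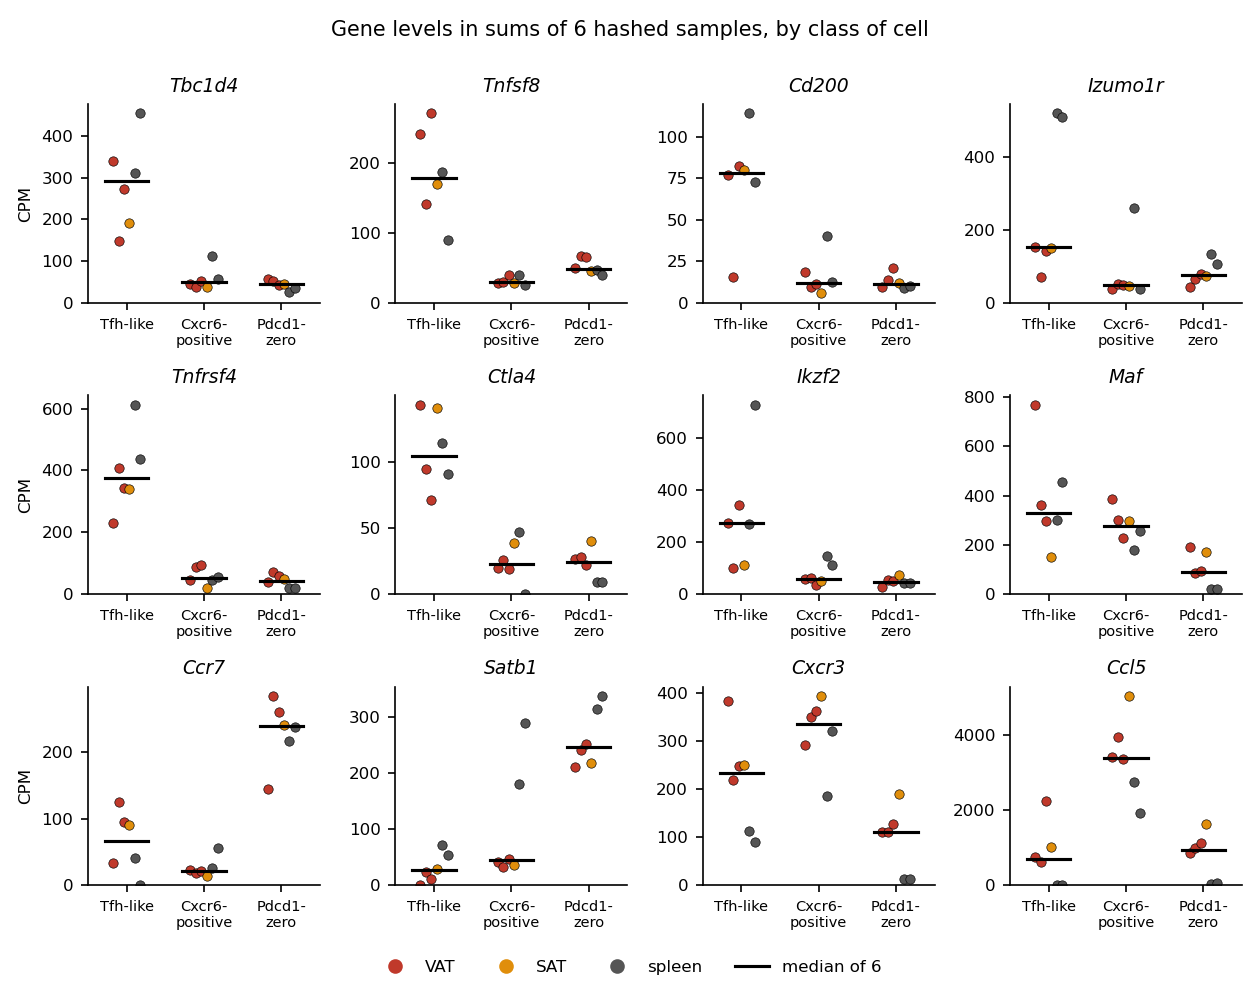
Levels in CPM of 12 genes in the sums of 6 hashed samples for Tfh-like, Cxcr6-positive and Pdcd1-zero cells. Each point is a hashed sample, coloured by tissue, and each line the median of 6. Tbc1d4, Tnfsf8, Tnfrsf4 and Ctla4 in Tfh-like cells lie above all sums of both other classes, Ccr7 and Satb1 lie below all Pdcd1-zero sums, and Ccl5 is highest in Cxcr6-positive cells.

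The other genes with the largest increases came from several pathways. Odc1, the first enzyme of polyamine synthesis, had 90.7, 379 and 520 CPM in Tfh-like cells, against 31.4, 59.7 and 83.9 in Pdcd1-zero cells (log2 fold change 2.42 ± 0.20, edgeR adjusted p = 2.1e-09). Tnfsf11 (RANKL), a cytokine of the tumour necrosis factor family, had 23.5, 62.5 and 100 CPM, against 2.90, 7.31 and 13.7 (2.79 ± 0.42). Slc22a15, a solute carrier gene, had 10.0, 39.0 and 62.3 CPM, against 0.792, 2.89 and 4.52 (3.33 ± 0.57). The sums of the classes did not overlap for any of these 3 genes. Eea1, an endosome tether gene, rose by 2.36 ± 0.36. Nrgn rose by 4.59 ± 0.79, but 47.1% of its 34 UMIs in all Tfh-like cells came from a single cell.

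Genes of naive and recirculating T cells were lower. Of 14 tested, 11 fell, none rose, and the median log2 fold change was -1.71. Satb1, a chromatin organiser of naive T cells, had 0, 26.8 and 72.7 CPM in Tfh-like cells, against 211, 247 and 337 in Pdcd1-zero cells (log2 fold change -3.39 ± 0.41, edgeR adjusted p = 2.56e-06). Over all 160 Tfh-like cells, with those outside these 6 samples or in no single sample, Satb1 stood higher, at 187 and 110 CPM in the 2 libraries, against 418 and 318 in Pdcd1-zero cells. Lef1, a transcription factor of naive T cells, had 78.4, 114 and 254 CPM, against 265, 386 and 569 (-1.95 ± 0.16), and Ccr7, the chemokine receptor for lymphoid tissue, had 0, 65.9 and 125, against 144, 238 and 283 (-1.95 ± 0.27). The sums of these 3 genes did not overlap between the classes. Over all Tfh-like cells Lef1 stood at 275 and 223 CPM in the 2 libraries, against 497 and 479, and Ccr7 at 116 and 125, against 189 and 254. Klf2, which sustains egress from tissue, fell by 1.15 on the log2 scale. Il7r (-0.96 ± 0.30), Nsg2 and Ly6c2 did not pass.

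Gm37248, 5830444F18Rik and E430014B02Rik, also among the largest decreases, are transcripts that lie inside Satb1 on the same strand of chromosome 17 (51736187 to 51833290), so their reads may belong to it and they are not counted as separate results. Sgk3, a kinase gene, had 0 UMIs in the 6 sums of Tfh-like cells and was at least 4.57-fold lower there, with a floor of 3 counts over the group. Outside these sums it had 13 UMIs in 9 Tfh-like cells, and over all of them it stood at 13.3 and 8.85 CPM in the 2 libraries, against 31.3 and 26.5 in Pdcd1-zero cells, a smaller gap. Fgl2, a secreted fibrinogen-like gene, had a log2 fold change of -4.14 ± 0.83, but the classes overlapped, and with Pdcd1 alone as the rule the value turned to 0.49.

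Globin genes also stood among the decreases. All 4 tested erythroid genes fell, with a summed level of 0 to 22.0 CPM over the list of 5 in the sums of Tfh-like cells, against 0 to 157 in Cxcr6-positive and 109 to 2235 in Pdcd1-zero cells. Hbb-bt had 0 UMIs in the Tfh-like sums and was at least 27.6-fold lower there; over all Tfh-like cells it stood at 4.44 and 1.26 CPM in the 2 libraries, against 73.9 and 171. These genes have near-identical copies, so that reads may be split between them. The class II antigen presentation list (4 genes) ran from 0 to 54.5 CPM, against 11.4 to 173 and 11.4 to 1368, the myeloid list (8 genes) from 70.2 to 236, against 107 to 255 and 83.4 to 2256, and the fibroblast list (6 genes) from 0 to 31.4, against 0 to 50.3 and 1.32 to 329. The B cell list (8 genes) ran from 59.1 to 229, against 119 to 380 and 156 to 273, and the CD8 T cell list (2 genes) from 0 to 211, against 6.57 to 69.1 and 11.4 to 26.1. In Tfh-like cells 5 of the 8 B cell genes and 6 of the 8 myeloid genes were at 0 in these sums. What such RNA of other cells contributed to the decreases was not tested, apart from Cd74, which was called lower and turned to 0.87 without cells that carried B cell, myeloid or fibroblast UMIs.

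Cell cycle and signalling genes were moderately higher against Pdcd1-zero cells. Mki67, Cdk1, Tyms and Stmn1 passed out of 11 cell cycle genes tested, none fell, and the median log2 fold change was 1.35. They rest on few cells. Mki67 was found in 6.88% of Tfh-like cells, against 10.3% of Cxcr6-positive and 2.45% of Pdcd1-zero cells, and 51.7% of its UMIs in Tfh-like cells came from a single cell. Without experiment 1 the log2 fold changes of Mki67 (2.09), Cdk1 (2.57) and Stmn1 (0.91) were 1.19, 2.35 and 0.58 and did not pass. Without SAT2, Tyms (1.52) was 1.45 and Stmn1 0.91, and neither passed. In cells of 4000 to 8000 UMIs, Stmn1 and Tyms turned to -0.905 and -0.52, and Mki67 turned to -2.11 without cells with Ikzf2. Among 12 genes of T cell receptor signalling, Egr1 (1.27 ± 0.32), Batf (1.26 ± 0.30) and Nfatc1 (0.82 ± 0.24) rose and none fell; Nfatc1 was 0.59 without experiment 1 and did not pass.

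In the other lists calls were few or mixed against Pdcd1-zero cells. Of 12 homing and adhesion genes Itgb1 rose (1.03 ± 0.15) and Selplg (-0.82) and Itgb7 (-0.61) fell, of 11 interferon response genes Ifi27l2a rose (0.79 ± 0.16), and of 11 S100 and annexin genes S100a11 rose (1.23 ± 0.19). Of 15 immediate early genes Jun (-1.17) and Btg2 (-0.51) fell, but neither passed without experiment 1 (-0.96 and -0.41), and Itgb7 and Btg2 not without SAT2 (-0.52 and -0.54). Gzmk, a granzyme of memory T cells, rose by 3.08 ± 0.70, with 35.3% of its UMIs in a single Tfh-like cell. Of 4 tested genes of the CD153-positive memory list, Tnfsf8, a marker, and Casp1, an inflammatory protease (1.39 ± 0.37), were higher, the chemokine gene Ccl4 fell (-3.12 ± 0.65) and Cd44 did not pass (0.86 ± 0.29). Of natural killer receptor and type 2 helper genes none of 6 and none of 2 passed, at median log2 fold changes of -2.74 and 0.98.

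Regulatory T cell genes were higher too. Ikzf2 (Helios) had 102, 272 and 726 CPM in Tfh-like cells, against 26.6, 47.6 and 75.5 in Pdcd1-zero cells (log2 fold change 2.19 ± 0.32, edgeR adjusted p = 2.91e-05), with no overlap, although no cell carried a Foxp3 UMI. Of 6 tested genes of that list 4 rose, Ikzf2, Ctla4, Tnfrsf18 and Nrp1 (1.35 ± 0.37), and Il2ra, the interleukin-2 receptor that regulatory T cells carry, had a log2 fold change of -0.01 ± 0.76.

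Since a Foxp3 transcript can be missed, the 70 Tfh-like cells with an Ikzf2 UMI were set beside Foxp3-positive cells. Of the regulatory T cell list, Il2ra stood at 30.9 and 10.2 CPM in the 2 libraries, against 179 and 106 in Foxp3-positive cells, Ctla4 at 134 and 119, against 381 and 255, and Capg at 61.8 and 129, against 328 and 343. Nrp1 and Tnfrsf18 were closer to the Foxp3-positive level. Nrp1 stood at 103 and 73.6 CPM, against 97.1 and 97.0, and Tnfrsf18 at 278 and 289, against 329 and 394. Lrrc32 (25.8 and 0, against 24.5 and 25.9) and Gpr83 (15.5 and 10.2, against 17.9 and 25.6) were near it in the library of experiment 1 alone. There they rested on 5 UMIs in 2 cells and 3 UMIs in 1 cell. Il10 stood at 0 and 2.54, against 33.1 and 9.95. Whether regulatory T cells with a missed Foxp3 transcript are among the Tfh-like cells was not tested. The 70 cells with Ikzf2 had 371 and 208 CPM of Tbc1d4, against 41.4 and 44.4 in Foxp3-positive cells, and Il21 in 8 of 70 cells, against 0 of 877. Cd200 was higher too, at 72.2 and 86.3 CPM, against 20.2 and 21.3. Tnfrsf4 (232 and 490, against 356 and 464), Icos (103 and 140, against 146 and 187) and Maf (536 and 213, against 381 and 247) were not higher in both libraries. The 90 Tfh-like cells without Ikzf2 had 109 and 171 CPM of Tbc1d4. When cells with Ikzf2 were left out of every class, 129 genes passed instead of 441, with fewer cells in each sum. Tnfrsf4, Odc1 and Cd200 still passed, whereas Ctla4 (1.64), Sh2d1a (0.53), Ptpn11 (0.69) and Tox (1.20) did not, and Tnfrsf9 had too few counts left to be tested.

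Set against Cxcr6-positive cells, Tfh-like cells had more transcript of Tnfrsf4, Tnfrsf9, Ctla4, Cd200 and Izumo1r, and less of Ccl5, Id2, Itga1 and Fgl2. Of the 8114 genes, 231 (2.85%) passed in edgeR's test, 70 higher (0.863%) and 161 lower (1.98%). Library size alone gave 84 higher and 114 lower, and RLE size factors 87 and 113. Of 63 named genes, 30 lost the call and 29 were unchanged in cells of 4000 to 8000 UMIs. Without the spleen samples 8 lost it and 54 were unchanged. The comparisons share the Tfh-like sums, and their values are given side by side without a measure of likeness.

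Tbc1d4, again as a description, had the values above in Tfh-like cells, against 37.3, 49.1 and 114 CPM in Cxcr6-positive cells, and Tnfsf8 25.1, 29.4 and 40.1. Neither overlapped. Of the other 14 tested Tfh genes 7 rose and 1 fell, with a median log2 fold change of 0.90, against -0.08 over all genes. Cd200 rose by 2.49 ± 0.44 against Cxcr6-positive cells, Rgs10, a regulator of G protein signalling, by 1.65 ± 0.25, Izumo1r by 1.63 ± 0.26, Sh2d1a by 1.11 ± 0.21 and Tcf7 by 0.93 ± 0.17. Ptpn11 (0.90) and Asap1 (0.89) passed too, but Ptpn11 was 0.71 without experiment 1 and Asap1 0.50 without SAT2, and both then missed the threshold. Cd40lg, the ligand with which helper cells signal to B cells, fell, with a log2 fold change of -0.73 ± 0.19. That call was lost without SAT2 (-0.75) and with RLE size factors (-0.65), library size scaling (-0.66) and DESeq2 (-0.65). Icos (0.45 ± 0.32) and Maf (0.44 ± 0.31) did not pass, whereas both rose against Pdcd1-zero cells; the difference between these comparisons was not tested.

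Among the receptors 6 of 12 rose and none fell. Tnfrsf4 had 21.4, 51.7 and 96.0 CPM in Cxcr6-positive cells, below every Tfh-like sum (log2 fold change 2.81 ± 0.29, edgeR adjusted p = 2.87e-07), and Ctla4 had 0, 22.9 and 46.8, below every Tfh-like sum too (2.20 ± 0.31). Tnfrsf9 rose by 2.99 ± 0.51 and Tox by 1.34 ± 0.27. Ikzf2 (2.03 ± 0.34), Id3, an inhibitor of E proteins that is kept in Tfh and memory precursors (2.58 ± 0.42), and Ephx1, an epoxide hydrolase (2.56 ± 0.43), were also higher. Myb, a factor of memory precursors, rose by 2.25 ± 0.60, but not without experiment 1 (2.13) or without SAT2 (1.85). Cd81, a tetraspanin gene, rose by 2.49 ± 0.60, with 33.9% of its UMIs in a single Tfh-like cell. Of the 14 naive genes Ccr7 (1.72 ± 0.39), Nsg2 (2.04 ± 0.40) and S1pr1 (0.82 ± 0.22) rose and Ly6c2 fell (-3.31 ± 0.47), which placed Tfh-like cells between the other classes for Ccr7; Ccr7 was 1.44 and S1pr1 0.52 without SAT2, S1pr1 was 0.83 without experiment 1, and none of these passed.

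Some Th1 and cytotoxic genes were lower than in Cxcr6-positive cells. Ccl5, a chemokine of effector T cells, had 10.4, 698 and 2244 CPM in Tfh-like cells, against 1936, 3401 and 5039 in Cxcr6-positive cells (log2 fold change -2.82 ± 0.46, edgeR adjusted p = 0.000284). It was lower in 6 of 6 hashed samples, with an overlap through VAT2 of experiment 2. Id2, a factor of effector differentiation, had 166, 304 and 509 CPM, against 695, 799 and 1011 (-1.53 ± 0.36), without overlap. Nkg7, a cytotoxic granule gene, had a log2 fold change of -1.63 ± 0.44, which lost its call without SAT2 (-1.77). These 3 were the genes that fell out of 14 Th1 genes, and none rose. Of 6 tested genes of the cytotoxic granule list 2 fell, none rose and 2 had a positive sign. Ccl5 is on that list too, and Ctsw, a cathepsin of cytotoxic cells, fell without overlap (-2.43 ± 0.30).

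Against Pdcd1-zero cells, 1 of the 14 Th1 genes passed, none fell, and the median log2 fold change was 0.57. That gene was Cxcr3, the chemokine receptor of Th1 cells. It had 90.7, 234 and 384 CPM in Tfh-like cells, against 187, 336 and 394 in Cxcr6-positive and 13.2, 110 and 190 in Pdcd1-zero cells. It was higher than in Pdcd1-zero cells in 6 of 6 samples (log2 fold change 1.17 ± 0.35), a call lost without experiment 1 (0.97), and its difference from Cxcr6-positive cells did not pass (-0.57 ± 0.34). Tbx21, the factor that directs Th1 cells, was found in 13.8% of Tfh-like cells, against 34.9% and 6.01%, and did not pass against Pdcd1-zero cells (0.17 ± 0.63) or Cxcr6-positive cells (-1.33 ± 0.55). Ifng was found in 21.2% of Tfh-like cells (15.2 to 28.4), against 45.7% of Cxcr6-positive and 8.01% of Pdcd1-zero cells, without passing in either comparison (-0.99 ± 0.30 over Cxcr6-positive and 0.76 ± 0.34 over Pdcd1-zero cells), and Il2 in 8.12% (4.40 to 13.5), against 31.4% and 4.95%. Il4 was found in 2 Tfh-like cells and a UMI of Il17a in 0 of 160, which allows a share of cells with a UMI of up to 1.88% by a floor of 3 counts and of 2.28% by the exact upper limit.

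Further genes of tissue residency and of type 17 cells were at or near 0 in Tfh-like cells. Itga1, an integrin of resident T cells, fell (log2 fold change -4.73 ± 0.69), as did Fgl2 (-6.17 ± 0.60) and the chemokine gene Ccl4 (-4.02 ± 0.58). Plac8, Mmp9 and Tmem176a had 0 UMIs in the 6 Tfh-like sums, at least 17.8-fold, 10.6-fold and 8.32-fold lower there (floor of 3 counts over the group). Over all Tfh-like cells Plac8 stood at 2.22 and 6.32 CPM in the 2 libraries, against 46.3 and 77.0, Mmp9 at 0 and 7.58, against 72.5 and 58.3, and Tmem176a at 4.44 and 0, against 24.8 and 32.5. Both tested type 17 genes, Tmem176a and Tmem176b (-4.70 ± 0.82), fell. Of 11 S100 and annexin genes, a group that marks effector and migrating cells, 6 fell and none rose; S100a4 (-1.19 ± 0.30) and S100a6 (-1.20 ± 0.31) were among them and lost the call without SAT2, at -0.95 and -1.05. Of 12 homing and adhesion genes 5 fell, among them Itga1, Ccr2 (-2.08 ± 0.53) and Rgs1 (-1.35 ± 0.28), and Gpr183, a receptor that guides cells to follicle borders, rose (0.69 ± 0.17). Ccr2 and Gpr183 missed the threshold without SAT2, at -2.22 and 0.62. Among 15 immediate early genes Fos (-1.15 ± 0.21), Junb, Ier2 and Btg2 fell and none rose, and of 12 T cell receptor signalling genes Tnf (-1.86 ± 0.28) and Il2 (-3.57 ± 0.57) fell.

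The Tfh-like cells were not uniform. The 62 cells with a UMI of Cxcr5, Tox2 or Gpm6b and the 98 with Slamf6 as the sole gene had similar depth, at medians of 6074 and 5816 UMIs. Tbc1d4 was found in 79.0% of the 62 cells, against 39.8% of the 98. Ctla4 was found in 45.2%, against 15.3%, Maf in 71.0%, against 41.8%, Ikzf2 in 59.7%, against 33.7%, and Il21 and Bcl6 in 16.1% each, against 1.02% and 4.08%. Satb1 (24.2%, against 36.7%), Ccl5 (24.2%, against 39.8%) and Nkg7 (27.4%, against 43.9%) ran the other way. Cells share their samples, so these shares are described without a test.

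**Figure D3:**
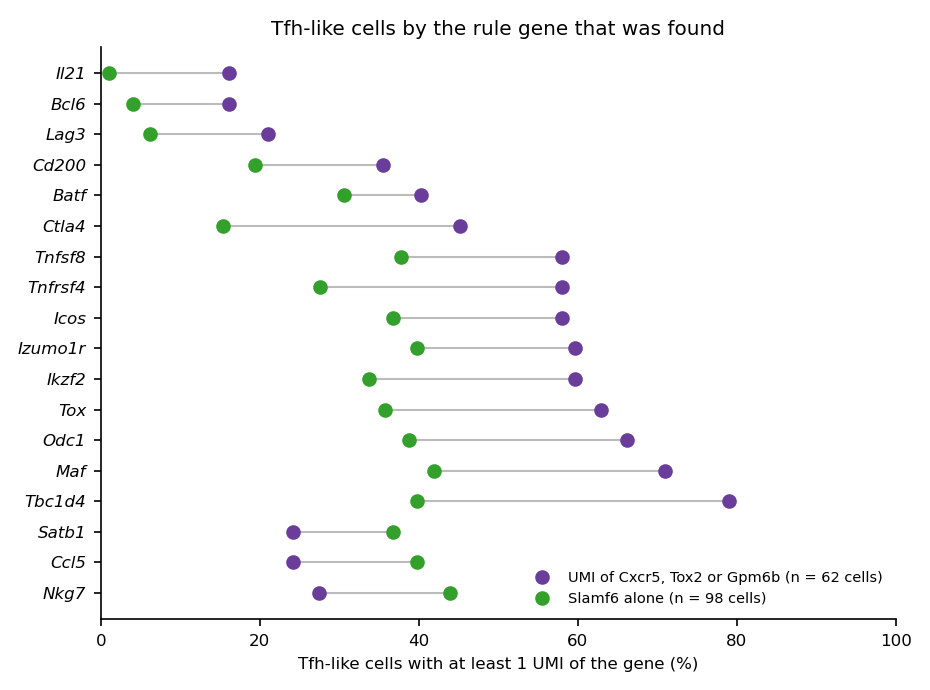
Percentage of Tfh-like cells with at least 1 UMI of each gene, for the 62 cells with Cxcr5, Tox2 or Gpm6b (purple) and the 98 cells with Slamf6 alone (green). Purple points lie to the right for the genes from Il21 to Tbc1d4 and to the left for Satb1, Ccl5 and Nkg7.

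The plot of cell shares shows each Tfh gene drawn more often in the 62 cells. Cxcr5 and Tox2 were found together in 10 cells, Cxcr5 and Gpm6b in 6 and Tox2 and Gpm6b in 3. The 25 cells with Cxcr5 had Il21 in 24.0%, Bcl6 in 32.0% and Izumo1r in 76.0%. Cells with 2 or more UMIs of Pdcd1 had Icos in 70.8%, against 33.9% of those with 1, and Tbc1d4 in 77.1%, against 45.5%, at medians of 6752 and 5574 UMIs. A few transcripts came mostly from single cells. Of 50 UMIs of Sostdc1, 60.0% came from 1 cell, and of 232 UMIs of Xcl1, a chemokine gene, 41.4%.

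Tfh-like cells were most common in VAT, though the design cannot show this at the 5% level. Of the 128 placed cells, 54 (42.2%) were in VAT, which held 25.9% of all placed cells, 28 in SAT, 13 in BAT and 33 in spleen. In VAT they made up 1.27% and 2.99% of the cells of VAT1 and VAT2 in experiment 1 and 2.32% and 2.28% in experiment 2. SAT had 1.01%, 0.467%, 0.723% and 1.86% in the same order, BAT 0.388%, 0.761%, 0.640% and 0.674%, and spleen 0.612%, 1.83%, 1.53% and 1.06%. All VAT values lay above all BAT values, and VAT overlapped SAT and spleen.

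The mean share was 2.21% ± 0.709 in VAT, 1.01% ± 0.605 in SAT, 0.616% ± 0.161 in BAT and 1.26% ± 0.537 in spleen (SD, n = 4 hashed samples). VAT exceeded BAT by 1.60 percentage points, 1.55 within the first experiment and 1.64 within the other, and SAT by 1.20 points (1.39 and 1.01), each with p = 0.0556 in a 2-sided exact permutation test within experiments. That is the smallest p that 36 arrangements allow, and over 6 tissue pairs the adjusted p was 0.167 for both. VAT exceeded spleen by 0.954 points (0.906 and 1.00, exact permutation p = 0.111, adjusted 0.167). BAT differed from spleen by -0.644 points (exact p = 0.111), SAT from BAT by 0.398 (exact p = 0.222) and SAT from spleen by -0.246 (exact p = 0.556), and the last turned positive in thinned cells (0.0951). BAT was the shallowest tissue in both experiments and spleen the deepest, and after thinning the means were 0.435% in VAT, 0.235% in SAT, 0% in BAT and 0.140% in spleen. These thinned means rest on only 11, 5, 0 and 4 Tfh-like cells, few for ordering the tissues. Hashtags of SAT1 in experiment 1 and BAT2 in experiment 2 were weak, with 119 of 497 and 183 of 445 cells kept by a stricter call, under which the means were 2.33%, 1.33%, 0.760% and 1.29%.

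**Figure D4:**
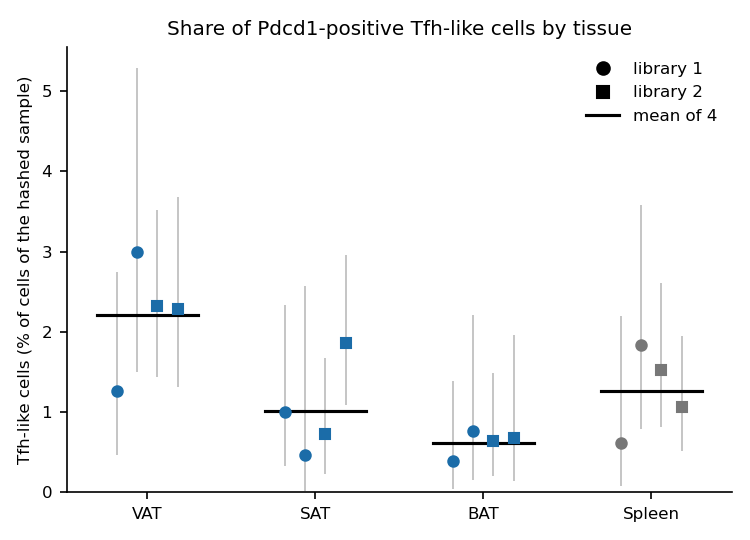
Tfh-like cells as a percentage of all cells of a hashed sample, by tissue, with exact 95% intervals for counting error. Circles are experiment 1, squares experiment 2 and lines the mean of 4 samples. The VAT values, 1.27% to 2.99%, lie above all BAT values and overlap those of SAT and spleen.

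Within the Tfh-like cells, VAT had more transcript than spleen of Ccl5, Nkg7, Itgb1 and several S100 and annexin list genes. Of 9 tested Th1 genes 2 passed (Ccl5 and Nkg7), and of 8 homing and adhesion genes 1 (Itgb1). The test used 3 VAT samples, 1 SAT and 2 spleen samples with the experiment as a term, and since VAT2 was the sole sample of experiment 1, the contrast rests on experiment 2. Of 2236 genes 17 (0.76%) passed in edgeR, 16 higher (0.716%) and 1 lower (0.0447%); library size alone gave 24 and 6, and DESeq2 gave 7, all higher. Ccl5 had 768, 627 and 2244 CPM in VAT Tfh-like cells, against 10.4 and 18.2 in spleen Tfh-like cells (log2 fold change 6.71 ± 0.82, edgeR adjusted p = 0.00162). Nkg7 had 318, 180 and 791 CPM, against 0 and 36.3 (5.11 ± 0.99). Itgb1, the beta subunit of adhesion receptors for matrix, had 1306, 1050 and 1358 CPM, against 270 and 345 (2.12 ± 0.30). No VAT value overlapped a spleen value for these genes.

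Crip1 (3.03 ± 0.30), Ahnak (3.43 ± 0.48), Vim (1.83 ± 0.34), S100a4 (1.89 ± 0.36) and S100a6 (1.39 ± 0.29) made 5 of 9 tested genes of the S100 and annexin list higher in VAT, and none lower. Fos (3.87 ± 0.63) and Junb (2.19 ± 0.37), immediate early genes that tissue digestion can raise, were higher among 13 tested, and with digestion confined to fat, tissue and preparation cannot be told apart. The gene that was lower was Izumo1r, at 154, 70.5 and 142 CPM in VAT, against 519 and 508 in spleen (-2.20 ± 0.42, edgeR adjusted p = 0.0248). It missed the threshold without VAT1 of experiment 2 (-1.75) and in DESeq2. Of the remaining 14 Tfh genes tested none passed in edgeR; 2 of the 15 had a positive sign, and the median was -0.40, against -0.03 over all genes. Vim (1.33) and S100a6 (1.27) also missed the threshold without VAT1, and S100a6 (1.47) without VAT2 of experiment 2.

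In SAT, 8 of 2236 genes (0.358%) were higher than in spleen and 0 (0%) lower, with 16 and 2 by library size alone. They were Ccl5, Xcl1, Fos, Dusp1, Junb, Ahnak, Hmgb2 and Ms4a4b. SAT had a single sample of 17 Tfh-like cells, assumed to vary like the others, so that these calls have no replicate of SAT behind them. Xcl1 stood at 702 CPM there, against 0 and 54.5 in spleen, and 76.7% of its UMIs in all Tfh-like cells came from 3 cells. BAT Tfh-like cells, 13 in all, could be compared with spleen only in sums per tissue and library.

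Pdcd1-zero cells of the same samples differed between tissues too. Their Ccl5 stood at 869, 996 and 1121 CPM in VAT, against 38.8 and 70.4 in spleen, and their Izumo1r at 44.4, 64.3 and 78.8, against 135 and 108. The difference between Tfh-like and Pdcd1-zero cells was therefore compared between VAT and spleen by an interaction term, in which 9 of 6016 genes (0.15%) passed in edgeR, 1 higher (0.0166%) and 8 lower (0.133%). S100a6, a calcium-binding protein gene, stood at 332 and 399 CPM in spleen Tfh-like cells, against 34.8 and 43.7 in spleen Pdcd1-zero cells. In VAT it stood at 1723, 909 and 815 in Tfh-like cells, against 1620, 555 and 703 in Pdcd1-zero cells, so that the excess was found in spleen and was small in VAT (interaction -2.76 ± 0.32 on the log2 scale, edgeR adjusted p = 3.3e-06).

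S100a4 (-2.55 ± 0.41) had 291 and 145 CPM in spleen Tfh-like cells, against 17.9 and 22.3 in spleen Pdcd1-zero cells, and 1010, 776 and 791 CPM in VAT Tfh-like cells, against 735, 365 and 396 in VAT Pdcd1-zero cells, so that the gap was wide in spleen and narrower in VAT. Maf, at 301 and 454 CPM in spleen Tfh-like cells, against 21.6 and 21.6, had an interaction of -2.02 ± 0.37, and Tnfrsf4, at 613 and 436 CPM, against 20.9 and 21.4, of -1.98 ± 0.38. Both were still higher in Tfh-like than in Pdcd1-zero cells of every VAT sample. Between Tfh-like cells of VAT and of spleen neither gene passed. The log2 fold change was -0.02 ± 0.36 for Maf and -0.37 ± 0.34 for Tnfrsf4 (edgeR adjusted p = 0.993 and 0.786). Ms4a4b, a CD20-related gene of T cells, was lower in Tfh-like cells of spleen, at 602 and 563 CPM, against 1295 and 1336 in Pdcd1-zero cells, and level in VAT, at 1350, 1473 and 1642, against 1261, 1519 and 1481 (interaction 1.35 ± 0.24). The interactions of Maf, Tnfrsf4 and S100a4 missed the threshold without SPLN1, at -2.21, -1.55 and -1.61. That of Maf also missed it without SPLN2 (-1.79) and that of Tnfrsf4 without VAT1 of experiment 2 (-1.95). Ms4a4b and S100a6 passed with each VAT or spleen sample left out in turn, and SAT2 was not left out.

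**Figure D5:**
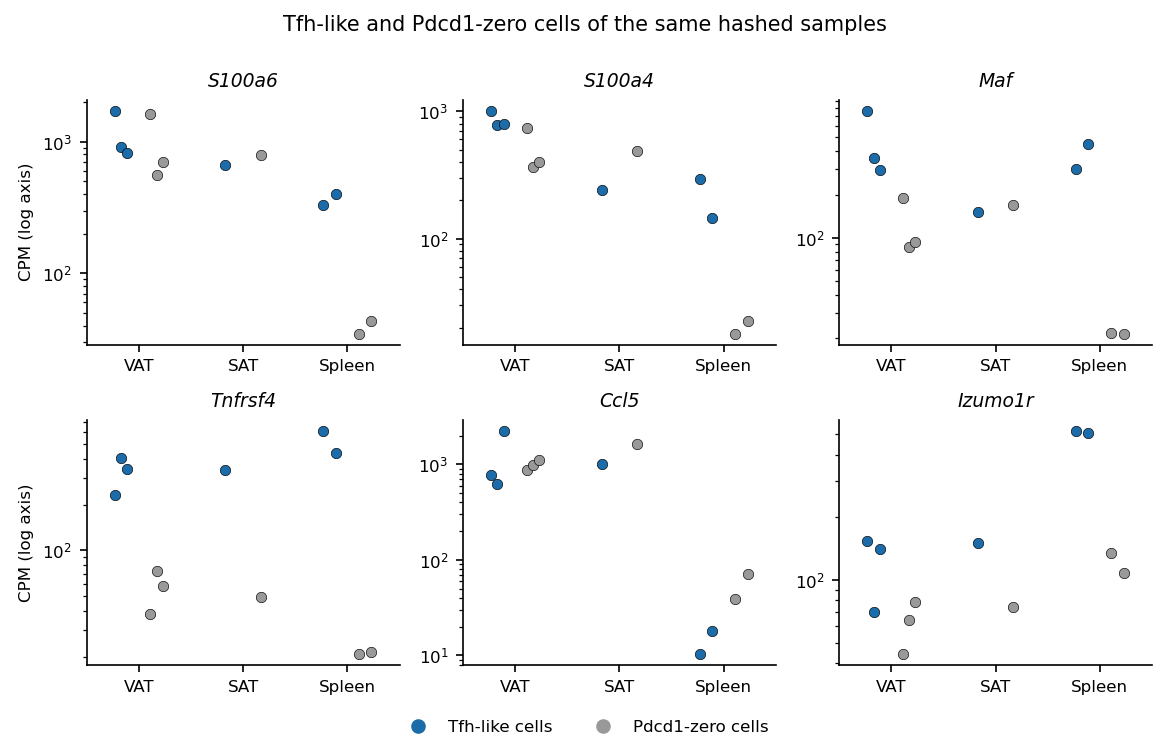
Levels in CPM, on a log axis, of 6 genes in Tfh-like cells (blue) and Pdcd1-zero cells (grey) of the same 6 hashed samples, by tissue. S100a6 and S100a4 lie far apart between the classes in spleen and closer in VAT, Ccl5 is low in both classes in spleen, and Izumo1r is highest in spleen Tfh-like cells.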

How the data were processed

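CD4 T cells were measured in 2 hashed droplet libraries with 3-prime chemistry. The deposited matrices hold raw UMI counts per barcode for 55487 genes and 15 hashtags, made by the authors with Cell Ranger 6.1.0 on mm10, per the file headers. The submitters' processing notes also name bcl2fastq and Seurat, without versions or parameters. Of the gene IDs, 54435 matched GENCODE vM21.

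Hashtags were matched to the labels by number and called here with a mixture model (posterior over 0.95), which placed 83.1% and 69.9% of cells in 1 sample. No doublet caller was used. Cells with more than 1 hashtag (7.91% and 14.0%) stayed in levels per library and in shares of cells with a UMI, and were left out of sums per hashed sample. Genes were tested on those sums with edgeR 4.0.16 in R 4.3.3 (quasi-likelihood, TMM, filterByExpr with a minimum count of 10), on the whole table, without the 9 genes that define the classes or cells, at an adjusted p of 0.05. Hashed samples entered the gene tests with at least 10 Tfh-like cells. Shares were compared by exact permutation within experiments (Python 3.11.15, scipy 1.17.1). Alternatives were DESeq2 1.42.0, other scalings and filters, thinning, depth windows, left-out samples and other rules. The code was tested on simulated data.

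Members and gene lists were chosen with earlier results of these data known. Named genes were the 10 highest and 10 lowest called fold changes (5 and 5 between tissues) at 20 CPM or more with the same direction in both libraries, all Tfh list genes, and up to 4 of lowest adjusted p in each other list; Lag3, Tbx21, Capg and the genes of cell shares were added after their values were seen. Depth limits these data: intervals cover counting error only, and 88 Tfh-like cells carry the gene tests.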

Additional observations from a re-analysis of the deposited data

Results flagged for a closer look

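The difference between Tfh-like and Pdcd1-zero cells was unequal in VAT and spleen for 9 genes, by the edgeR interaction term. On the log2 scale, as VAT minus spleen, it was -2.76 for S100a6, -3.53 for Anxa2, -2.55 for S100a4, -2.46 for Bcl2a1b, -2.02 for Maf, -1.98 for Tnfrsf4, -5.68 for Cd74 and -1.39 for Srgn, and 1.35 for Ms4a4b. Without the spleen sample SPLN1, S100a6 and Ms4a4b passed and the other 7 did not, among them Anxa2 (-2.51), Bcl2a1b (-2.05), Cd74 (-5.82) and Srgn (-0.89). Cd74 also missed the threshold without SPLN2 (-5.59), without VAT2 of experiment 1 (-3.25) and in DESeq2, and Srgn without VAT1 of experiment 2 (-1.23) and in DESeq2. Anxa2, an annexin gene, stood at 263, 157 and 248 CPM in VAT Tfh-like cells and at 239 and 72.6 in spleen Tfh-like cells, against 380, 93.2 and 107 in VAT Pdcd1-zero cells and 11.1 and 8.13 in spleen Pdcd1-zero cells. Srgn, a granule proteoglycan gene, stood at 1010, 792 and 1288 CPM in VAT Tfh-like cells and at 1713 and 1198 in spleen Tfh-like cells, against 645, 563 and 520 in VAT Pdcd1-zero cells and 273 and 310 in spleen Pdcd1-zero cells. Bcl2a1b has near-identical copies, so its counts are uncertain. Cd74 was at 0 in 1 of the 3 VAT sums of Tfh-like cells, and in VAT Pdcd1-zero cells it stood at 807, 22.6 and 83.9 CPM. Tissue cannot be told apart from preparation here, since spleen was not digested.

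Hashtags that the labels of an experiment do not list gave 0.0143% of the hashtag counts on Tfh-like cells in the library of experiment 1 and 0.034% in that of experiment 2, against 0.0843% and 0.0909% over all cells.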

How the results depend on the processing

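Counts of called genes moved by more than 1.5 times in these settings. Against Pdcd1-zero cells (441 called), there were 130 in cells of 4000 to 8000 UMIs, 164 in thinned cells, 734 without a count filter, 805 with Pdcd1 alone as the rule, 129 without cells with Ikzf2, 230 without spleen and 123 without VAT. Against Cxcr6-positive cells (231), there were 375 with at least 2 Tfh-like cells per hashed sample, 45 in the depth window, 71 thinned, 407 without a filter, 459 with Pdcd1 alone, 574 in sums per library, 411 in such sums without cells of more than 1 hashtag, 120 without SAT and 26 without VAT. For VAT against spleen (17), DESeq2 gave 7, library size 30, no filter 42, RLE 29, sums per tissue and library 36, and leaving out 1 sample 23 to 66. For SAT against spleen (8), the same settings gave 2, 18, 19, 16, 26 and 21 to 32. For the interaction (9), no filter gave 20 and leaving out 1 sample 3 to 13, the lowest without SPLN1 and the highest without VAT2 of experiment 1. The sums per tissue and library, those without cells of more than 1 hashtag and the minimum of 2 cells were added after seeing the data. Same-numbered samples did not deviate together throughout (r of -0.0454 to 0.509 over 2415 genes and both experiments), so the numbers were not taken to pair them. Within experiment 2, on which the tissue tests rest, r was 0.246 for VAT and spleen, 0.115 for VAT and SAT and 0.182 for SAT and spleen, and a pairing there cannot be settled from these values; with the replicate block, 97 genes passed for VAT and 47 for SAT.

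The SAT minus spleen share difference turned to 0.0951 in thinned cells, 0.114 in the depth window, 0.0467 with stricter hashtag calls and 0.124 with Pdcd1 alone. Of the 70 named genes, those called that turned sign against Pdcd1-zero cells were Cd74 (0.87 without cells with B cell, myeloid or fibroblast UMIs), Tyms (-0.52 in the depth window), Stmn1 (-0.905 in the depth window, -0.32 thinned), Mki67 (-2.11 without cells with Ikzf2) and Fgl2 (0.49 with Pdcd1 alone). The causes were not tested, apart from the smaller number of cells that these settings leave. Of 1171 values for 70 named genes over 18 settings, 976 kept direction and side of the threshold and 188 lost the call; against Cxcr6-positive cells these were 969 and 151 of 1131. A minimum of 20 Tfh-like cells per sample, leaving out experiment 2, and the depth window between tissues were not run, since too few sums were left.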
